A study of Mus musculus with 22 samples.

Results

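Esrrb, Tbx3, Tfcp2l1, Nr0b1 and Zfp42 are 5 transcriptional regulators known from the naive pluripotency network of the mouse, the state of cultured embryonic stem cells (ESCs). They were chosen by name and not by a rule on measured values, though with earlier results of these data known. They make up 5 of the 27352 genes and 11 of the 41174 probes on the array. Their RNA was measured on 22 one-colour Agilent arrays that follow mouse primordial germ cells (PGCs, the precursors of sperm and eggs) as they turn into embryonic germ cells (EGCs), a pluripotent line. Every condition has 1 array, so there are no replicates. One array holds uncultured PGCs of E11.5 embryos. PGC cultures were read on day 1 with bFGF; on days 2, 3 and 6 with bFGF, the 2 inhibitors called 2i (the MEK inhibitor PD325901 at 1 µM and the GSK inhibitor CHIR99021 at 3 µM) and the TGF-β receptor inhibitor A83-01 at 250 nM; and on day 10. Further day 2 cultures had bFGF alone or with the MEK inhibitor, the GSK inhibitor, A83-01, or 4-hydroxytamoxifen (4OHT, 100 nM, which the labels give for AKT activation); a last one combined 2i, A83-01 and 4OHT. An EGC line and an ESC line were each read once. EBRTcH3 ESCs, a line with a tetracycline-regulated locus, were read as the parental line and with forced Prdm14, Vasa, Nanos2, Nanos3, Dnd, Blimp-1 or GFP. The labels name an EF1a promoter, an IRES-GFP cassette and day 2 for the GFP and Blimp-1 cells and give neither promoter nor day for the other constructs, so the GFP array is a labelled match for Blimp-1 alone. The medium held LIF and serum replacement. Per the labels' descriptions PGCs, their cultures and the EGC and ESC lines were sorted on SSEA-1, a surface sugar that PGCs share with ESCs, and the construct-bearing cells on GFP. How many embryos or clones stand behind an array is not given in the sources used here.

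Naive pluripotency is held by a web of transcription factors that support each other's expression and respond to LIF through Stat3 and to Wnt signalling through relief of Tcf7l1 repression. Esrrb, an orphan nuclear receptor, is a main target of GSK inhibition in ESCs. Tfcp2l1, a grainyhead-family factor, lies downstream of LIF, and the T-box factor Tbx3 can sustain self-renewal when it is forced. Nr0b1 (Dax1) is a nuclear receptor without a DNA-binding domain that acts as a corepressor in ESCs, and Zfp42 (Rex1) is a zinc finger gene used as a marker of the naive state. PGCs express many of these genes but do not contribute to chimaeras when placed in a blastocyst, as ESCs and EGCs do.

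Start sites were looked at for sequence features that the choice of genes did not use. RefSeq promoter windows of GRCm38.p6 were matched for 4 of the 5 genes, with 5 windows in all; Tbx3 is named only. Both windows that held any searched motif are shown over their 250 bases upstream of the start site, 5′ to 3′ on the gene's strand, with motif matches in capitals. The Zfp42 window lies at chr8:43307010-43307259 on the minus strand and the first of the Esrrb windows at chr12:86360867-86361116 on the plus strand.
Zfp42: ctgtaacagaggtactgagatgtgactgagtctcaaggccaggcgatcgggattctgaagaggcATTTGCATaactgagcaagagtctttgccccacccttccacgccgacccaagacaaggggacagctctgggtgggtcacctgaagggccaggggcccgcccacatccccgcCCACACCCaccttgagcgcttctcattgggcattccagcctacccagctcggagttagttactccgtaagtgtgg
Esrrb: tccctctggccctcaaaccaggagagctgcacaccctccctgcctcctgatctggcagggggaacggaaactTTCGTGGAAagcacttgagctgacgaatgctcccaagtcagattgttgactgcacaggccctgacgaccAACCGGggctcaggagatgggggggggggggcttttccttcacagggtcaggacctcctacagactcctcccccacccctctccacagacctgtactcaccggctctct
The capitals in Zfp42 are ATTTGCAT, the octamer bound by POU factors such as Pou5f1, from position -186 relative to the start site, and CCACACCC, the reverse strand of the Klf motif GGGTGTGG, from -75. In Esrrb they are TTCGTGGAA, a match to the STAT motif TTCNNNGAA from -178, and AACCGG, the reverse strand of the core Tfcp2l1 motif CCGGTT, from -109. The other Esrrb window and those of Tfcp2l1 and Nr0b1 held none of the 7 motifs. On both strands of 32851 windows of 300 bases, the octamer was in 1.74%, the Klf motif in 3.56%, the STAT motif in 8.30% and the Tfcp2l1 core in 6.83%. The motifs without a match were TCAAGGTCA for Esrrb (0.423% of windows), CTTTGAT for TCF factors (3.73%) and AGGTGTGA for T-box factors (1.28%). A match only describes the letters of a window.

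A level is the log2 of the array's signal minus the log2 of that array's 75th percentile, so 0 is the 75th percentile and 1 unit is 2-fold. Levels are compared between arrays for a gene and never between genes, since probes differ in brightness. In these sorted but bulk samples fewer cells of a type and less RNA per cell cannot be told apart. The 75th percentile ranged from an intensity of 123.9 on the day 2 array with 2i, A83-01 and 4OHT to 782.5 on day 6, and the share of probes well above background from 44.4% to 64.71% on the same dim array and on the EGC array. The 22 arrays lie on 10 slides. Days 1 and 10 and the day 2 arrays with bFGF and with 2i and A83-01 share a slide, as do days 3 and 6; the 3 single-inhibitor arrays share another and both 4OHT arrays a further one. The forced genes checked the construct labels unevenly: Nanos3 stood at 2.66 on its array against -3.19 to -0.33 on the other EBRTcH3 arrays. Ddx4 (Vasa) was lowest of the 8 EBRTcH3 arrays on its own, Nanos2 was not well above background on its own, Dnd1 was 2nd and Prdm1 (Blimp-1) 7th of 8, and no probe named Prdm14 was analysed here. Where these probes lie relative to the constructs is not known, so a construct's array is called below by its label.

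All 5 genes were well above background on all 22 arrays by the probe that stands for them, the brightest of each gene. These probes are 60 bases long and lie, on mm9, at chr12:87862389-87862448 (Esrrb), chr5:120134473-120134532 (Tbx3), chr1:120581646-120581705 (Tfcp2l1), chrX:83441169-83441228 (Nr0b1) and chr8:44380667-44380726 (Zfp42, minus strand). The exon each lies in was not looked up, as no mm9 annotation was used here. The further probes of Tfcp2l1 correlated with the main one at 0.95 to 0.99 over the 22 arrays. That of Esrrb did so at 0.93 and that of Zfp42, which overlaps the main probe by 20 bases, at 1.00. The second Tbx3 probe, at chr5:120122741-120122800, correlated at 0.70 only, and its values stand beside the Tbx3 results they touch.

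The 5 genes ranged widely. Esrrb ran from 0.64 on the day 2 array with A83-01 to 5.62 on the GFP array, with a median of 2.77. Tfcp2l1 had the same extremes, at 0.42 and 5.10, with a median of 2.07. Zfp42 was also lowest with A83-01, at 2.15, and reached 7.18 on the parental EBRTcH3 array, with a median of 4.88. The other 2 had their lowest values elsewhere. Nr0b1 was lowest on day 2 with 2i and A83-01, at -2.73, and highest on the Vasa array at 6.05, a range of 8.77 that was the widest of the 5. Tbx3 was lowest in uncultured PGCs, at -2.16, and highest on the Prdm14 array at 4.51. In the order of levels, neighbouring arrays differed by a median of 0.12 (Tfcp2l1) to 0.38 (Nr0b1). With 1 array per condition there is no spread between repeats to set such gaps against.

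**Figure D1:**
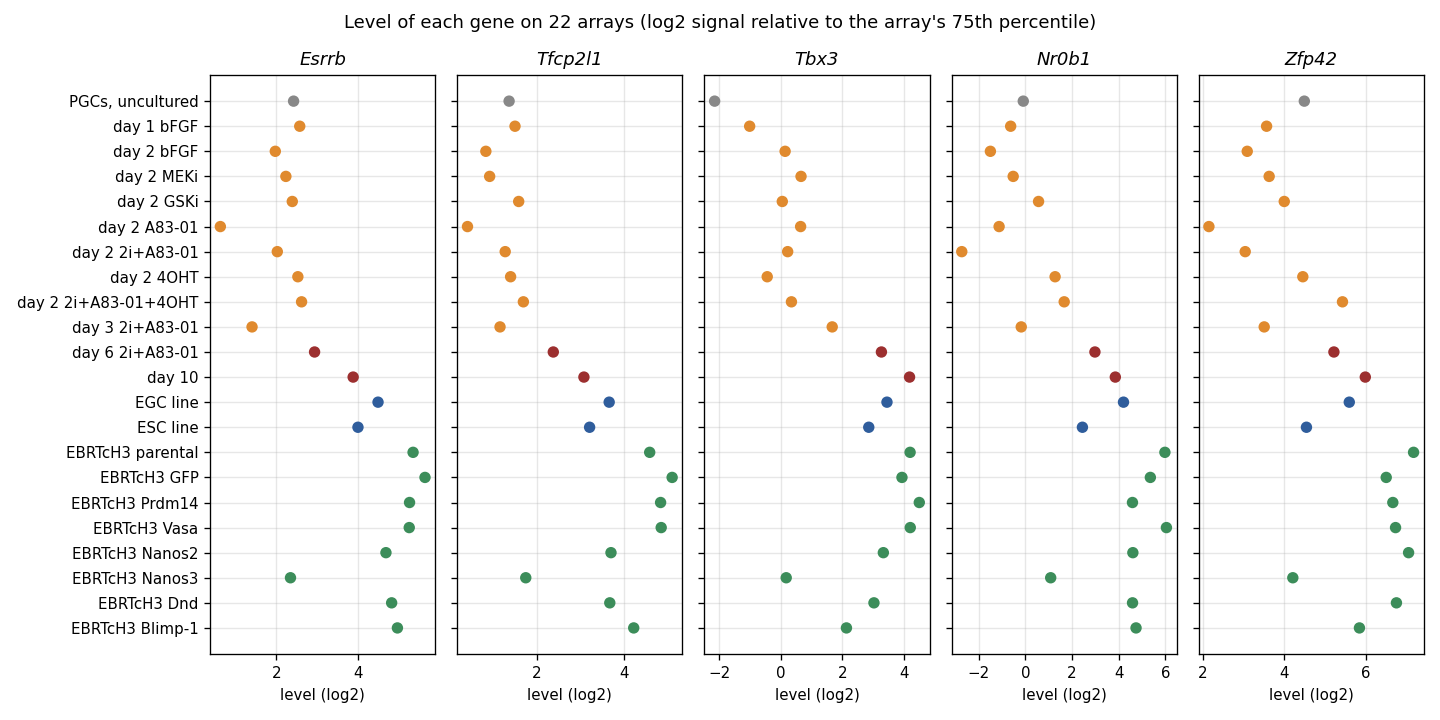
Level of each of the 5 genes (log2 signal relative to the array's 75th percentile, horizontal axis) on each of the 22 arrays (vertical axis), 1 point per array and no error bars because each condition has 1 array. Most EBRTcH3 arrays are at the right of each panel; that labelled Nanos3 lies among the PGC cultures, and Tbx3 on the Blimp-1 array, at 2.14, lies under day 6.

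The time course asks how PGCs change on the way to a pluripotent line. Uncultured PGCs already carried Esrrb, Tfcp2l1 and Zfp42 above the 75th percentile of their array, at 2.42, 1.37 and 4.49. These 3 were flat or lower through day 3, and all 5 genes were at least 2-fold higher on day 6 than on day 3 by their main probes. Nr0b1, at -0.09, and Tbx3, at -2.16, lay below it in PGCs, and Tbx3 rose over the course by its main probe.

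Tbx3, which is also a developmental regulator of mesenchymal tissues, read -2.16 in PGCs, -1.02 on day 1, 0.22 on day 2, 1.67 on day 3, 3.28 on day 6 and 4.19 on day 10. Every step was upward. Its slope of 1.96 per unit of log2(day + 1) (SE 0.17, n = 6 arrays) passed with an adjusted p of 0.0498 in limma over 18698 genes. It was the only one of the 5 called, where 10 of all genes (0.0535%) were. The call was lost without each of the 6 arrays in turn, with adjusted p of 0.0576 (without PGCs) to 0.288 (without day 6), and with slide as a block (0.0616). By the second Tbx3 probe PGCs were not low, at -2.57 and well above background, while day 1 was at -7.57 and not well above background. That probe then read -7.23 on day 2, again not well above background, -4.99 on day 3, -3.52 on day 6 and -2.95 on day 10. From PGCs to day 10 the main probe differed by 6.35 and the second one by -0.38. Between days 3 and 6 they differed little, at 1.60 and 1.47.

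Nr0b1 took another course, with a trough on day 2. It read -0.09 in PGCs, -0.63 on day 1, -2.73 on day 2, -0.18 on day 3, 2.98 on day 6 and 3.85 on day 10. Its slope of 1.37 (SE 0.57) had an adjusted p of 0.404 in limma. The main markers of the network moved less. Esrrb read 2.42, 2.57, 2.03, 1.41, 2.93 and 3.87 on the same 6 arrays, with its low on day 3 (slope 0.35, SE 0.26, limma adjusted p 0.619). Tfcp2l1 read 1.37, 1.50, 1.28, 1.16, 2.38 and 3.08 (slope 0.48, SE 0.20, limma adjusted p 0.403). Zfp42, the zinc finger marker, read 4.49, 3.57, 3.04, 3.51, 5.22 and 5.99 (slope 0.53, SE 0.32, limma adjusted p 0.554). None of these 4 slopes passed the test.

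By the main probes, the step from day 3 to day 6, on a shared slide, was the only one with all 5 genes past 2-fold in one direction. Nr0b1 was 8.93-fold higher on day 6, Zfp42 3.28-fold, Tbx3 3.04-fold, Esrrb 2.87-fold and Tfcp2l1 2.33-fold. All 5 were past 2-fold by these probes, as were 14.2% of the 16952 genes compared. The second Esrrb probe differed by 0.51, short of 2-fold, and that of Zfp42 by 1.78. The further Tfcp2l1 probes differed by 1.22 and, just short of 2-fold, by 0.9995 and 0.995. By day 10 the gain over day 6 was 0.70 to 0.94 in each of the 5, none past 2-fold, beside a median of 0.23 over all genes. Of the other naive network genes, 22 of 24 were analysed here. Between days 3 and 6, 19 of the 22 were at least 2-fold higher and none lower, with a median of 1.53, from -0.24 for the Kruppel-like factor Klf2 to 4.79 for the homeobox gene Gbx2. Their slopes over the whole course were upward for 18 and downward for 4, none past the test, from -0.32 for Klf2 to 3.08 for Dnmt3l, a cofactor of DNA methylation. Genes of the LIF-STAT3 pathway did not share the step: 0 of 9 were past 2-fold either way, with a median of -0.08. From PGCs to day 1, 5 of the 9 were past 2-fold up and none down, led by Bcl3 at 4.98. Of all genes 19.8% were past 2-fold up and 33.9% down. Pim1, Pim3 and Junb read lower on day 1. Primed epiblast genes, which mark the later state of the embryo, also stood higher on day 6: 8 of 11 were past 2-fold up and 1 down. Of all genes 8.48% were past 2-fold down in that step.

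Other cell types moved along the same axis. The summed linear level of 10 fibroblast and mesenchyme markers was 29.1 in PGCs, 117 on day 1, 326 on day 2, 162 on day 3, 96.7 on day 6 and 73.5 on day 10, with 8 to 10 of them well above background. The collagen-binding proteoglycan Dcn read 0.06 in PGCs, 7.12 on day 2, 5.96 on day 3 and 5.09 on day 6. PGC markers summed to 108 in PGCs, 13.8 on day 3 and 32.5 on day 6. The part of these cells in the members' values was not tested. The median of all genes from PGCs to day 1 was -0.48, and -0.19 with quantile scaling, so a difference of that step is best read against it: 0.15 for Esrrb, 0.14 for Tfcp2l1, -0.54 for Nr0b1, -0.93 for Zfp42 and 1.14 for Tbx3. The Tbx3 difference was -5.00 by the second probe, whose day 1 side was not well above background, and -1.93 by the mean of both.

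**Figure D2:**
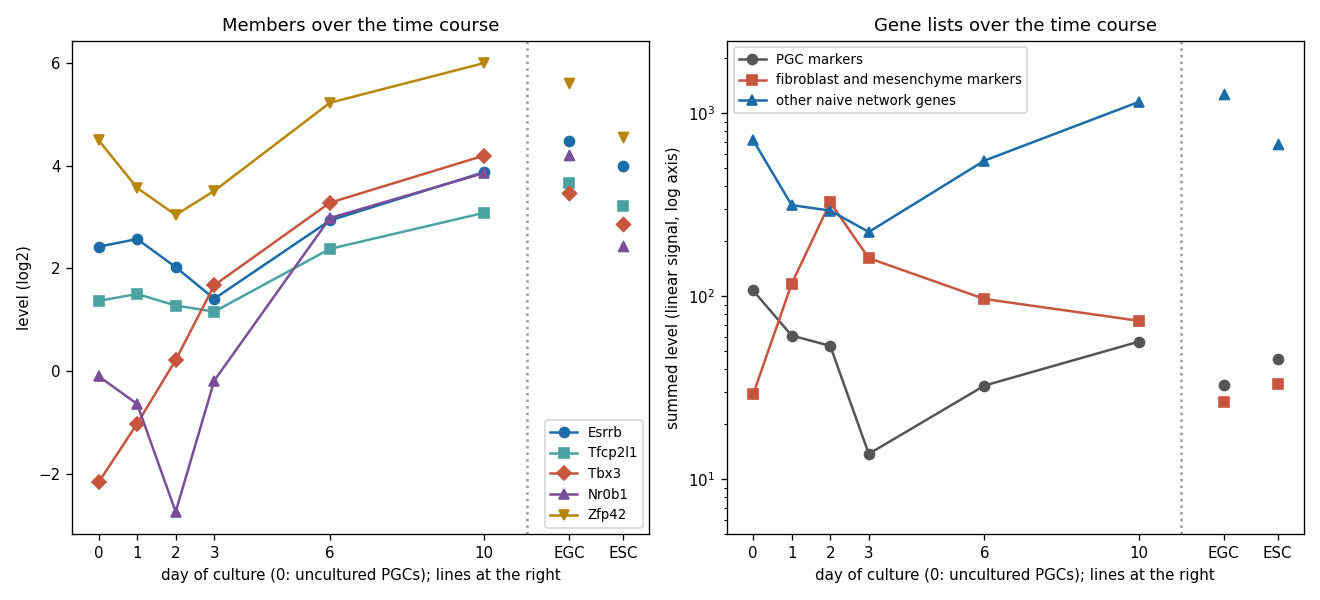
Left, levels (log2) of the 5 genes against day of culture, with the EGC and ESC lines at the right; right, summed linear levels of gene lists on a log axis against the same days, 1 array per point. All 5 genes are higher on day 6 than on day 3, while the fibroblast and mesenchyme sum peaks at 326 on day 2.

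Set against pluripotent lines, uncultured PGCs had lower estimates for all 5 genes, none past the test. The 3 lines were the ESC, EGC and parental EBRTcH3 arrays, and the lone PGC array was assumed to vary as they do. For Tbx3 the lines read 2.87, 3.46 and 4.21, all above the PGCs, a difference of -5.67 (SE 0.84, limma adjusted p 0.144). For Nr0b1 they read 2.44, 4.21 and 5.98 (difference -4.30, SE 1.42, limma adjusted p 0.392). Esrrb (-2.18, SE 0.84), Tfcp2l1 (-2.45, SE 0.85) and Zfp42 (-1.28, SE 1.16) had limma adjusted p of 0.493, 0.423 and 0.818. No gene of 18540 was called (0%), with 1834 at an unadjusted p under 0.05. Zfp42 in PGCs, at 4.49, lay beside the ESC array at 4.54. Which lines entered the fit changed the call: without the ESC array Tbx3 (limma adjusted p 0.00035) and Nr0b1 (0.0034) passed among 571 genes, without the EGC array Tbx3 (0.0149) among 265, and without the parental array no gene. By the second Tbx3 probe PGCs, at -2.57, lay between the parental EBRTcH3 array at -1.88 and the EGC array at -3.19, and the ESC array was not well above background. The PGC array also carried markers of other cells: blood cell markers summed to 34.2 against 2.20 to 6.31 on the 3 lines, with the embryonic globin Hbb-y at 4.77, and kidney and mesonephric tubule markers to 14.6 against 2.52 to 4.30. Gonadal somatic markers summed to 6.94 against 3.94 to 8.94, and among them Lhx9 read -1.18 and was not well above background on the lines. The part of these in the members' values was not tested.

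The day 2 arrays ask which additions to bFGF move the cultures. With bFGF alone Esrrb read 1.98, Tfcp2l1 0.84, Zfp42 3.09, Nr0b1 -1.50 and Tbx3 0.14. The additions were fitted as additive terms over the 7 arrays, which leaves 2 residual degrees of freedom. No gene of 18715 passed in any of the 5 terms (0%) in limma, while 461 to 8781 genes had an unadjusted p under 0.05. Differences from the bFGF array are therefore given as such.

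Of the single additions 4OHT gave the highest Nr0b1 and Zfp42. Nr0b1 read 1.27 with 4OHT, 6.84-fold above bFGF, and 1.66 with 2i, A83-01 and 4OHT, 21.0-fold above 2i and A83-01. Zfp42 read 4.46 and 5.43, which is 2.58-fold and 5.24-fold higher in the same comparisons. In each comparison these 2 of 5 members were past 2-fold, as were 26.7% of all genes with 4OHT and 38.1% with 4OHT on 2i and A83-01. The median of all genes was 0.36 and 0.49, and 0.14 and 0.08 with quantile scaling. With quantile scaling Zfp42 was no longer past 2-fold with 4OHT. The fitted 4OHT term was 2.61 for Nr0b1 (SE 0.83, limma adjusted p 0.079) and 1.72 for Zfp42 (SE 0.34, 0.0518). Leaving out the bFGF, MEK inhibitor, GSK inhibitor or A83-01 array put both past the threshold, with estimates of 2.42 to 3.58 and 1.74 to 1.88. In that order, these fits called 3724 of 18441, 9522 of 18389, 9679 of 18526 and 9312 of 18136 genes for 4OHT. Each left 1 residual degree of freedom, so these calls do not set the 2 genes apart. For Esrrb the term was 0.71 (SE 0.27), for Tfcp2l1 0.50 (SE 0.25) and for Tbx3 -0.43 (SE 0.32), beside a median of 0.58 over all genes; limma adjusted p was 0.108, 0.176 and 0.328. These 3 directions turned under alternatives: Esrrb and Tfcp2l1 were at -0.15 with normexp, and Tbx3 at 0.33 with the mean of its probes. Both 4OHT arrays share a slide that holds no other array, so 4OHT and slide cannot be told apart, and they are among the dimmest arrays. On 2i and A83-01 with normexp background correction the Zfp42 difference came to 0.15 and that of Nr0b1 to 2.56.

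Other cells differed on those arrays too. The fibroblast and mesenchyme sum was 299 with bFGF, 41.7 with 4OHT and 40.2 with 2i, A83-01 and 4OHT, and Dcn read 6.79, 1.46 and 0.19. Trophectoderm markers summed to 60.6, 357 and 240, mostly from keratins: Krt18 read 5.27, 7.86 and 7.24. Gata3 was highest with bFGF, at -1.40, as was Plac1 at -0.38, and Cdx2 was well above background only on the 4OHT array of these 3. PGC markers summed to 43.0, 54.9 and 86.9, mostly from Dppa3 at 4.33, 4.48 and 5.59 and Tfap2c at 2.23, 3.51 and 4.20. Nanos3, Dnd1, Dazl and Fut4 also rose over these 3 arrays, and Ddx4 was highest with 4OHT. Prdm1, Kit and Alpl fell, with Kit at 1.05, 0.49 and 0.25. The part of these cells in the Nr0b1 and Zfp42 values was not tested. Of the 22 other naive genes 10 were at least 2-fold higher with 4OHT and 1 lower, from -1.91 for Klf4 to 3.68 for Dnmt3l. On 2i and A83-01, 4OHT had 13 past 2-fold up and 3 down. Of the LIF-STAT3 genes none was past 2-fold up with 4OHT and 3 were down, the lowest the kinase Jak1 at -2.60. Past 2-fold down were 14.1% of all genes with 4OHT and 19.8% with 4OHT on 2i and A83-01.

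A83-01 alone gave the lowest Esrrb, Tfcp2l1 and Zfp42 of all 22 arrays, at 0.64, 0.42 and 2.15. Against bFGF and by the main probes, Esrrb was 2.53-fold lower, the only one of the 5 past 2-fold down, as were 6.66% of all genes. Zfp42 differed by -0.94, Tfcp2l1 by -0.42, Nr0b1 by 0.37 and Tbx3 by 0.51. The second Esrrb probe gave -0.50, short of 2-fold. The further Tfcp2l1 probes gave -0.73 and, past 2-fold, -1.01 and -1.05. In the additive fit the A83-01 term was -1.08 for Esrrb (SE 0.28), -0.97 for Zfp42 (SE 0.36) and -1.01 for Nr0b1 (SE 0.86), each with a limma adjusted p of 1.00. Without the A83-01 array itself the Nr0b1 term was -4.27 and past the threshold, as were 1597 of 18136 genes. That fit left 1 residual degree of freedom and took A83-01 only from arrays that also held 2i, so the call does not set Nr0b1 apart. Among the other naive genes 10 of 22 were at least 2-fold lower with A83-01 and 1 higher, from -2.15 for the adhesion protein Pecam1 to 2.07 for Eras. PGC markers fared likewise, with a sum of 13.2 against 43.0 with bFGF, and the germ cell gene Dppa3 read 2.24 against 4.33. The part of PGC number in the members' values was not tested.

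The GSK inhibitor alone gave higher Nr0b1, at 0.56, 4.18-fold above bFGF. It was the only one of the 5 past 2-fold up, as were 12.7% of all genes. Zfp42 differed by 0.91, Tfcp2l1 by 0.75, Esrrb by 0.41 and Tbx3 by -0.09. The fibroblast and mesenchyme sum was 71.4 on that array. With the MEK inhibitor, differences ran from 0.09 for Tfcp2l1 to 0.98 for Nr0b1, none past 2-fold. With 2i and A83-01 together, 4 of the 5 lay within 0.44 of bFGF and Nr0b1 differed by -1.23, although the GSK and MEK inhibitors each had it higher on their own. The MEK, GSK and A83-01 arrays share a slide apart from the bFGF array, so these 3 differences cannot be told apart from that slide.

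**Figure D3:**
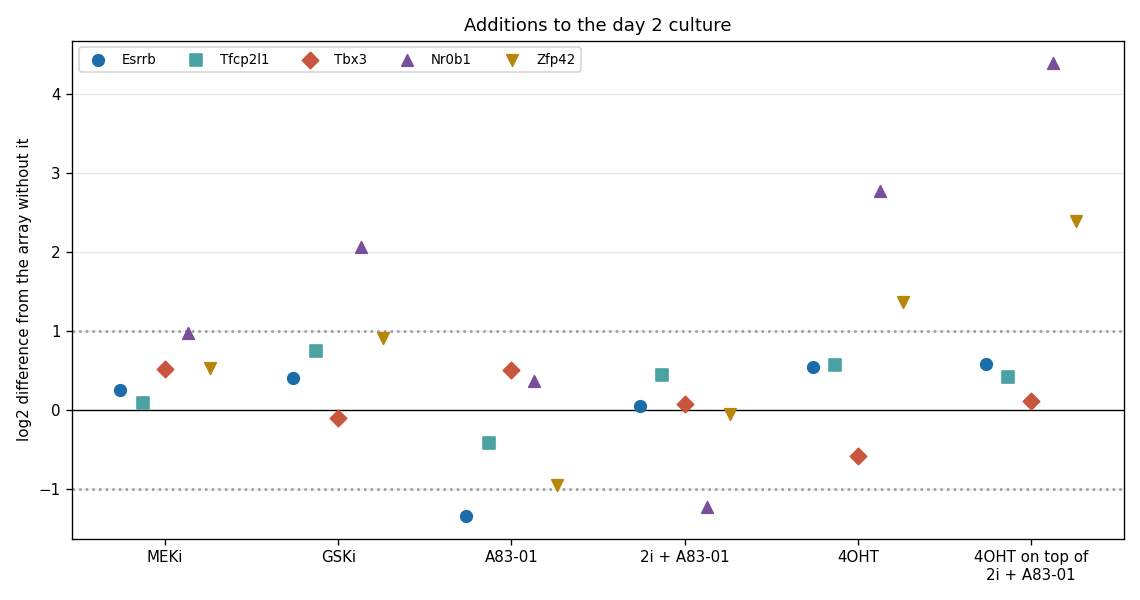
Difference in level (log2, vertical axis) between each day 2 array and its comparison array for the 5 genes, 1 array against 1 with no error bars; dotted lines mark 2-fold. Nr0b1 and Zfp42 lie past the upper line with 4OHT and with 4OHT on 2i and A83-01; Nr0b1 also does with the GSK inhibitor, and past the lower line lie Esrrb with A83-01 and Nr0b1 with 2i and A83-01.

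The endpoint comparison sets the EGC line beside an ESC line. By the main probes all 5 genes read higher in EGCs: Nr0b1 by 1.76 and Zfp42 by 1.05, past 2-fold, then Tbx3 by 0.59, Esrrb by 0.49 and Tfcp2l1 by 0.45. The second Esrrb probe differed by 1.38 and that of Zfp42 by 1.25, both past 2-fold. The further Tfcp2l1 probes differed by -0.002, -0.18 and 0.22, and the second Tbx3 probe was not well above background in ESCs. Past 2-fold by the main probes were 2 of the 5 and 16.6% of all genes, and the median of all genes was 0.19. With quantile scaling only Nr0b1 was past 2-fold. The other naive genes had 5 of 22 past 2-fold up and none down, with a median of 0.59. Against day 10 the EGC array was higher in Esrrb (0.61), Tfcp2l1 (0.58) and Nr0b1 (0.35) and lower in Tbx3 (-0.74) and Zfp42 (-0.39), none past 2-fold. The EGC and ESC arrays are each alone on a slide, so line and slide cannot be told apart.

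The last set asks what forced germ cell genes do in ESCs. Among 7 of the 8 EBRTcH3 arrays the 5 genes stayed high: Esrrb ran from 4.67 to 5.62, Tfcp2l1 from 3.67 to 5.10, Nr0b1 from 4.59 to 6.05, Tbx3 from 2.14 to 4.51 and Zfp42 from 5.85 to 7.18. The array labelled Nanos3, a gene of an RNA-binding protein that PGCs need to survive, lay under each of these ranges. It read 2.35 for Esrrb, 1.75 for Tfcp2l1, 1.08 for Nr0b1, 0.18 for Tbx3 and 4.21 for Zfp42. Against GFP the levels were 19.3-fold lower for Nr0b1, 13.7-fold for Tbx3, 10.2-fold for Tfcp2l1, 9.66-fold for Esrrb and 4.91-fold for Zfp42. All 5 were past 2-fold down, as were 14.3% of all genes. The second Esrrb probe differed by -3.13, and the second Tbx3 probe, at -3.32 with GFP, was not well above background on the Nanos3 array.

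Within its slide, which also holds the Nanos2 and Dnd arrays, the Nanos3 array was lower by 2.39 in Esrrb (SE 0.41, limma adjusted p 0.191), 3.52 in Nr0b1 (SE 0.68, 0.196) and 2.70 in Zfp42 (SE 0.45, 0.191) on the log2 scale. For Tbx3 the estimate was -3.01 (SE 0.71) and for Tfcp2l1 -1.94 (SE 0.46), both with a limma adjusted p of 0.27. None of 18874 genes passed (0%), with 1725 at an unadjusted p under 0.05. Without the slide block Esrrb passed (-2.77, SE 0.41, limma adjusted p 0.0394), as 1 of 53 genes called among 18874. The array correlated with the other EBRTcH3 arrays at 0.918 (parental) to 0.956 (Dnd) over the 18875 genes well above background on at least 1 of the EBRTcH3 arrays. Pairs of the other EBRTcH3 arrays correlated at 0.931 (parental with GFP) to 0.973 (Nanos2 with Dnd), so the ranges overlap.

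Not all of the network was low on that array. Of the 22 other naive genes 7 were at least 2-fold below GFP and none above, with a median of -0.65 against -3.35 for the 5 members. Pou5f1, the core pluripotency factor, read 5.49 against 5.72, and Sall4 3.56 against 3.93. Nanog read 2.29 against 4.82, Klf4 2.29 against 4.92, and the lowest difference was that of Tcl1 at -3.39. Primed epiblast genes had 6 of 11 past 2-fold up and none down, led by T (Brachyury), a mesoderm gene, at 4.70. The LIF-STAT3 genes had 1 of 9 past 2-fold up and none down. Of all genes 11.8% were past 2-fold up on that array, near the share of the LIF-STAT3 genes. Markers of some other cell types were higher and of others lower. The 10 trophectoderm markers summed to 234 against 6.65 to 89.4 on the other EBRTcH3 arrays, again mostly from keratins. As on the Blimp-1 array, 9 were well above background. Cdx2 read 0.61 against -4.46 with GFP and -1.23 on the Blimp-1 array, and Krt8 and Krt18 were also highest on the Nanos3 array. Gata3, Hand1, Krt7, Plac1, Ascl2 and Tfap2a read higher on the Blimp-1 array than on the Nanos3 array, with Hand1 at -0.86 against -2.01. Fibroblast and mesenchyme markers summed to 57.9 against 21.9 to 43.1. Extraembryonic endoderm markers summed to 57.1 against 6.63 to 29.8. Gonadal somatic markers (3.05 against 3.88 to 8.94) and blood cell markers (2.17 against 2.65 to 7.46) had their lowest sums there. The part of such cells in the members' values was not tested.

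The arrays of the other constructs lay nearer to GFP. None of the 5 passed limma's test on any of their arrays, but that test set each construct against the other arrays of its slide. For Nanos2 and Dnd these include the low Nanos3 array, and only the Blimp-1 array shares a slide with GFP. For the other constructs the test is therefore no test of the differences from GFP given here. The largest difference from GFP was Tbx3 on the Blimp-1 array, 3.50-fold lower at 2.14 against 3.95, both on the same slide. The second Tbx3 probe was not well above background there. By the main probes the Nanos2 array differed by -1.40 for Tfcp2l1 and -0.95 for Esrrb, and the Dnd array of the same slide by -1.43 and -0.81. The further Tfcp2l1 probes did not repeat a 2-fold drop. On the Nanos2, Dnd and GFP arrays they read 0.06, 0.15 and 0.96, then -1.57, -1.51 and -0.95. The remaining probe was higher than with GFP, at 1.34, 1.55 and 1.26. On the Prdm14 and Vasa arrays differences lay between -0.77 and 0.69, with the parental array at -0.51 to 0.67.

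**Figure D4:**
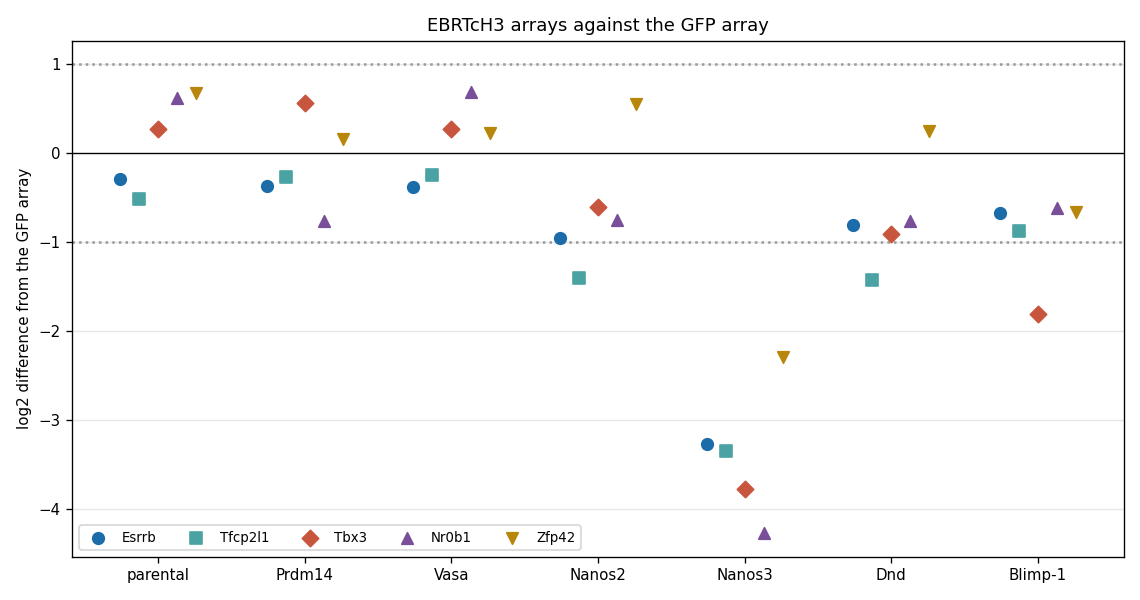
Difference in level (log2, vertical axis) of the 5 genes between each EBRTcH3 array and the GFP array, 1 array against 1 with no error bars; dotted lines mark 2-fold. On the array labelled Nanos3 all 5 genes lie between -4.27 and -2.30, and Tbx3 lies at -1.81 on the Blimp-1 array.

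Across the whole series, the 9 arrays of day 1 to day 3 cultures were set beside the 10 ESC, EGC and EBRTcH3 arrays. Esrrb had a lowest, median and highest level of 0.64, 2.23 and 2.62 in the cultures and 2.35, 4.88 and 5.62 in the lines. Tfcp2l1 had 0.42, 1.28 and 1.70 against 1.75, 3.96 and 5.10, the only one of the 5 without overlap, by 0.05. The share of all genes whose line arrays all lay higher was 5.44%. Nr0b1 had -2.73, -0.52 and 1.66 against 1.08, 4.60 and 6.05. Tbx3 had -1.02, 0.22 and 1.67 against 0.18, 3.40 and 4.51. Zfp42 had 2.15, 3.57 and 5.43 against 4.21, 6.59 and 7.18. The lowest line array was that labelled Nanos3 for each of the 5. Without it, a choice made after seeing the data, 4 of the 5 did not overlap, by 0.46 (Tbx3) to 1.52 (Tfcp2l1), beside 6.25% of all genes. Zfp42 still overlapped, as the day 2 array with 2i, A83-01 and 4OHT lay above the ESC array.

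Over the 22 arrays the levels of the 5 genes correlated pairwise at 0.75 to 0.98 (Pearson). The arrays share slides and fall into cultures and lines, so these are descriptions. Esrrb and Tfcp2l1 were the closest pair, at 0.98 over 22 arrays and 0.90 within the 12 arrays of PGCs and their cultures. Tbx3 was the least like the others: within those 12 arrays it correlated with Esrrb at 0.36 and with Zfp42 at 0.42, and within the 9 cultures of days 1 to 3 with Esrrb at -0.61. The second Tbx3 probe is at odds with the first in PGCs, 1 of those 12 arrays. Among the 7 EBRTcH3 arrays other than that labelled Nanos3, Zfp42 correlated with Esrrb at -0.03.

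Of 13350 genes well above background on at least 11 arrays, those whose levels were most like each member were as follows, by Pearson's correlation over 22 arrays. Esrrb was nearest to Tfcp2l1 (0.98), the chromatin remodeller Smarcad1 (0.97) and the Wnt receptor Fzd5 (0.97), and Tfcp2l1 to Esrrb (0.98), Smarcad1 (0.97) and Septin1 (0.96). Nr0b1 was nearest to Septin1 (0.97), Stmn3 (0.96) and Chrna9 (0.96). Zfp42 was nearest to the homeobox factor Nanog (0.97), Mkrn1 (0.97) and Zfp459 (0.96). Tbx3 was nearest to Zfp57 (0.95), a zinc finger gene that guards imprints, Klf9 (0.94) and Adam23 (0.93). Its Spearman correlations with these were 0.85, 0.90 and 0.86.

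**Figure D5:**
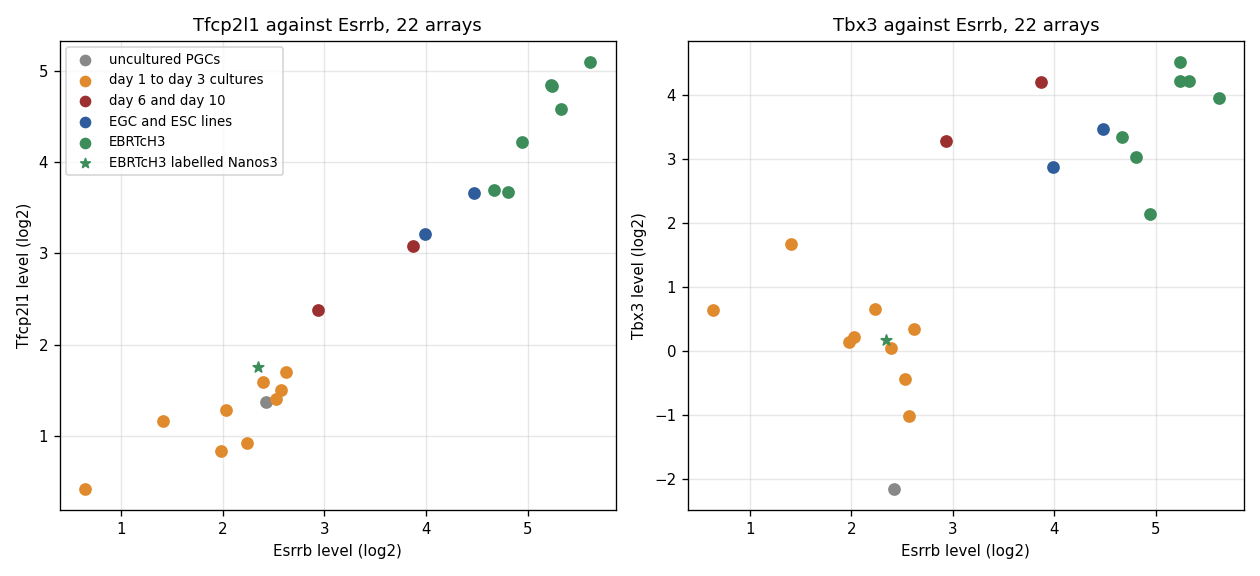
Level (log2) of Tfcp2l1 and Tbx3 (vertical axes) against that of Esrrb (horizontal axis), 1 point per array, coloured by kind of array. Tfcp2l1 follows a single line (Pearson 0.98), whereas Tbx3 spreads at low Esrrb (Pearson 0.78), and the array labelled Nanos3 lies with the cultures.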

How the data were processed

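Total RNA of 22 samples was hybridised to 22 one-colour Agilent arrays with probes annotated on mm9; the scans were read with Agilent Feature Extraction 10.7.3.1, per the file headers. The intensity used is the processed signal of the deposited scanner files, background-subtracted per the file headers, and the authors' deposited value table, also an intensity, served as an alternative. The outlier and well-above-background flags used are other columns that the authors deposited in the same files.

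Here outlier and control spots were dropped, spots of a probe averaged, and log2 intensity scaled to each array's 75th percentile. A gene was read from its brightest probe (by mean over the 22 arrays). Probes were matched to current RefSeq symbols by accession (27576), symbol (5499) or synonym (634), and 7465 kept the file's name. Fits used limma 3.58.1 in R 4.3.3 (lmFit, eBayes) on genes well above background on at least 1 array of the fit, with Benjamini-Hochberg adjustment over all of them at 0.05, two-sided, and were tested on simulated data. Residual spread came from departures from the time line, from additivity, or between lines or constructs; p-values measure only the spread between these arrays. For differences between 2 arrays, a side not well above background was set to the lowest level called so on its array, and 2-fold counted as past the fold. Alternatives were normexp background (offset 50), quantile scaling, the authors' table, the mean of a gene's probes, no filter, other time scales, slide, and each array left out.

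The 5 genes and all lists were chosen with earlier results of these data known. Named beside the members are, per list, the highest and lowest value, the defining markers of other cells, and the 3 genes most like each member. Pou5f1, Sall4, Nanog and Klf4 on the Nanos3 array, Pim1, Pim3, Junb, Hbb-y, Lhx9, Krt18, Gata3 and Plac1 were added after their values were seen. So were the PGC markers named beside Dppa3 and the further trophectoderm markers named beside Cdx2.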

Additional observations from a re-analysis of the deposited data

Results flagged for a closer look

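Some differences on the day 2 arrays changed sign with the culture they were set against, each from 1 array on either side, and the difference between the 2 values was not tested. Tbx3 differed by -0.58 when 4OHT was added to bFGF and by 0.12 when it was added to 2i and A83-01. Nr0b1 differed by -1.23 when 2i and A83-01 were added to bFGF and by 0.39 when they were added to 4OHT. Zfp42 differed by -0.050 and 0.97 in the same pair of comparisons. With normexp background correction the values for 2i and A83-01 on 4OHT were -0.59 for Nr0b1 and -1.11 for Zfp42. The array with 2i, A83-01 and 4OHT enters all 3 pairs and is the dimmest of the series.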

How the results depend on the processing

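The authors' table changed no call and no count by over 1.5 times. Of 270 estimates of members in fits under alternatives, 233 kept direction and side of the threshold, 19 newly passed, 11 no longer passed and 7 reversed. No paired analysis was possible because each condition has 1 array. Members called: for the time trend 0 with normexp, the mean of probes, linear days, ranked days or slide as a block; PGCs against lines 1 with normexp; 4OHT 1 with normexp, 2 with the mean of probes and 2 without the filter; the Nanos3 array 1 without the slide block. Genes called: time trend 0 with normexp, linear days, ranked days or slide, and 37 without the filter; PGCs against lines 59 with normexp and 81 without the filter; MEK inhibitor 21 with normexp and 714 with slide in place of the 4OHT term; GSK inhibitor 10 and 641; A83-01 9 and 619; 2i with A83-01 3 and 501. The 4OHT term called 8418 genes with normexp, 4357 with the mean of probes and 15352 without the filter. The Nanos3 array had 2 with normexp, 13 with quantile scaling and 53 without the slide block. Leaving out 1 array at a time, genes called ran from 0 to 571 for PGCs against lines (members 0 to 2), 0 to 9679 for 4OHT (members 0 to 2), 0 to 1597 for A83-01, 0 to 1570 for the GSK inhibitor and 0 to 2046 for the MEK inhibitor (members 0 to 1 in each), 0 to 489 for 2i with A83-01, and 0 for the trend, members included. The cause of these shifts was not tested.

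Reversed estimates were the 4OHT term with normexp for Esrrb (-0.15) and Tfcp2l1 (-0.15), Tbx3 with the mean of probes (4OHT 0.33; day 1 minus PGCs -1.93) and the second Tbx3 probe for day 10 minus PGCs (-0.38). Leaving out 1 array, Nr0b1 with A83-01 ran from -4.27 to 0.78, Tbx3 with 4OHT from -0.80 to 0.017 and Tbx3 with A83-01 from -0.34 to 0.68.

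Genes past 2-fold with normexp numbered 1106 for day 6 against day 3, 1309 for EGCs against ESCs, 1002 for the GSK inhibitor, 437 for A83-01 and 1010 for the Nanos3 array. Without the filter they numbered 3401 for the GSK inhibitor, 1804 for A83-01, 13679 for 4OHT, 16837 for 4OHT on 2i and A83-01 and 3742 for the Nanos3 array. Members past 2-fold were 1 for EGCs against ESCs, 2 for A83-01 and 1 for 4OHT with quantile scaling; 0 for A83-01 and 4 for 4OHT on 2i and A83-01 with the mean of probes; and 1 for the latter with normexp. Genes with line arrays all above the early cultures numbered 1840 without the dimmest array of each set, and members 4 without the Nanos3 array. With 1 array per condition, signal over background limits the dimmest arrays most.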

Other observations

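The relatives of the 5 genes varied in pattern. Esrra, Esrrg, Tbx2, Ubp1, Yy1 and Yy2 were well above background on all 22 arrays. Esrra, a broadly expressed relative of Esrrb, read 2.77 in PGCs, 2.62 on day 3 and 2.33 on day 6, and 1.39 on the array labelled Nanos3, its lowest. Esrrg stayed at -2.61 on day 3 and -2.70 on day 6. Tbx2, the closest relative of Tbx3, read 0.18 in PGCs and -1.87 on day 1, then -1.48 on day 3 and -1.63 on day 6, so it did not share the Tbx3 gain. Tbx4 was highest in uncultured PGCs, at -1.30, and was well above background on 12 arrays. Tfcp2, the relative of Tfcp2l1, was so on 14 arrays and Nr0b2, the relative of Nr0b1, on 10, with its highest level of -2.49 on day 10. Tbx5 was well above background on 0 arrays. Yy2, a relative of Zfp42, read -2.05 in PGCs, -2.66 on day 1, -2.71 on day 3, -1.92 on day 6 and -0.96 on day 10. It was lowest on day 2 with 2i and A83-01 and highest on the parental EBRTcH3 array, and read -2.34 on the Nanos3 array against -1.23 with GFP.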
